A study of Mus musculus with 30 samples.

Results

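Of the 305931 windows of accessible chromatin counted in mouse marrow-derived mesenchymal stem cells (MSC) at 24 h, 478 windows (0.156%) lost accessibility under both actin inhibitors of the study, CK666 and cytochalasin D (CytoD). Each window's reads were expressed as CPM, the reads in the window divided by the reads in all windows of the same library and scaled to 1000000. A window was taken when its lowest CPM in 3 control libraries was 1 or more, and when the highest CPM in the 3 CK666 libraries and the highest CPM in the 3 CytoD libraries were both under 0.6 times that lowest control value. Of the 130178 windows with a lowest control CPM of 1 or more, called eligible below, 2372 passed the limit with CK666 and 2210 with CytoD. The 478 windows that passed both made up 20.2% of the former and 21.6% of the latter, and both comparisons used the same control libraries. The windows were thus chosen by their 24 h CPM in all 3 groups, and these values are given below as a description, with no test from which anything is read.

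The MSC were a primary line made from the marrow of several male C57BL/6J mice, left untreated or treated with CK666 or CytoD for 24 h. In a separate experiment, untreated and CK666-treated MSC, and untreated and CK666-treated NIH 3T3 cells, an embryonic fibroblast line to which the labels give the same strain and sex, were collected at 4 h. The NIH 3T3 cells came from ATCC. Their labelled strain and sex were not checked, so a match to the MSC is not assumed. Each group held 3 libraries, prepared from equal numbers of cells by Omni-ATAC, an assay in which a transposase cuts open DNA and attaches sequencing adapters to it. CytoD was used at 24 h only. Nothing states that replicates came from separate cultures, so p-values measure the spread between these libraries, which may be technical. The siRNA libraries of the series were not used here.

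CK666 blocks the Arp2/3 complex, which starts new actin filaments as branches on existing ones, whereas CytoD caps the growing ends of filaments. Actin state is read out by at least a pair of transcription systems: MRTF, a cofactor of SRF, is held by monomeric actin, and YAP and TAZ, cofactors of the TEAD factors, enter the nucleus when cells are spread and under tension. Many enhancers that answer these systems carry AP-1 sites next to TEAD sites. Transfer RNA genes are transcribed by RNA polymerase III from promoter boxes inside the gene, and the genes of the spliceosomal U1, U2, U4 and U5 RNAs and of the U3 RNA, which acts in ribosomal RNA processing, have compact promoters of their own.

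Total counts ranged from 14071301 to 22352180 per library at 24 h and from 14496058 to 34979833 at 4 h. Windows at the transcription start sites (TSS) of 8 of 10 mesenchymal marker genes were present at 24 h, with control means from 4.54 to 44.2 CPM, including Twist1 and Pdgfrb. No window held the TSS of Ptprc or Pecam1, which mark blood and endothelial cells, and the 3 blood markers and 2 endothelial markers that had a window reached at most 2.97 and 3.12 CPM in controls. The 3 adipocyte markers with a window lay between 1.76 and 5.80 CPM in controls, 2.31 and 5.63 CPM with CK666 and 3.52 and 6.71 CPM with CytoD. The mesenchymal markers ranged from 4.34 to 40.6 CPM with CK666 and from 5.12 to 40.4 CPM with CytoD, the blood markers from 1.19 to 2.94 CPM and from 1.60 to 2.77 CPM, and the endothelial markers from 0.919 to 3.32 CPM and from 0.972 to 2.85 CPM. Single markers differed between groups, such as Adipoq (1.76 CPM in controls, 2.31 CPM with CK666, 4.01 CPM with CytoD), Adgre1 (0.828, 1.23 and 2.77 CPM) and Cd44 (40.6, 31.1 and 26.3 CPM), chosen after their values were seen. Their part in the results was not tested. The word closed describes the rule rather than an empty window. In 359 of the 478 windows all 6 treated libraries still held 1 CPM or more, in 47 windows all 6 were under 1 CPM, and in 3 windows at least 1 treated library held no read.

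The sequences of 3 windows are shown because each holds letters that were frequent among the 478, those of AP-1 (TGANTCA) and TEAD (GGAATG), on either strand. The sequences are the central 300 bases of each window, read from the plus strand of GRCm38, with AP-1 and TEAD matches in capitals. The first lies in an intron of Fhit at chr14:9669750-9670333 and had the lowest ratio of CK666 mean to control mean of all members. Its ratio with CytoD was not the lowest. The second lies in an intron of the non-coding gene Gm33037, downstream of Apob, at chr12:8054617-8055196, and the third in an intron of Actn1, which encodes an actin crosslinking protein of focal adhesions, at chr12:80220145-80220679.
Fhit: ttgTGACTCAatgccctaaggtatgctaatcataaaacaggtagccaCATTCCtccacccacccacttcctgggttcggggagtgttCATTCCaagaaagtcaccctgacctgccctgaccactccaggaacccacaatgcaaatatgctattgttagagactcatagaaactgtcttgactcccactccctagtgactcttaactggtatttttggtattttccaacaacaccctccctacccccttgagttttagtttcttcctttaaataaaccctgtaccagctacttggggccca
Apob: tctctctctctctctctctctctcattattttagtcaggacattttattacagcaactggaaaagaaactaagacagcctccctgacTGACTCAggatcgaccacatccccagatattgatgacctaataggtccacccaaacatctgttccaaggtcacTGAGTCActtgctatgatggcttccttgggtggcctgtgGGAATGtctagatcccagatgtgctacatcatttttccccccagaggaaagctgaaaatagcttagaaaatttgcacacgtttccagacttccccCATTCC
Actn1: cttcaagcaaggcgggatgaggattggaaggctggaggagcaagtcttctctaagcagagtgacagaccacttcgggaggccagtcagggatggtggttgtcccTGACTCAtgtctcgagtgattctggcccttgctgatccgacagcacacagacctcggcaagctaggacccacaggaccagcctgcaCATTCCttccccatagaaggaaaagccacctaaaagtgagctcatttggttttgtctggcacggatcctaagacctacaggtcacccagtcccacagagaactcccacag

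A further 3 stretches show another kind of member, small RNA genes, with the transcribed bases in capitals and the flanks in lower case. The first is n-TRtct3, a tRNA-Arg gene on the minus strand at chr13:21917162-21917247, inside the member window chr13:21916858-21917395. The second is n-TLtaa2, a tRNA-Leu gene on the minus strand at chr13:21848022-21848104, inside the member window chr13:21847770-21848293. Both genes hold the box B letters GTTCGANNC once. The third is the promoter and the first 60 transcribed bases of Gm22973, a U2 gene on the plus strand at chr12:59040335-59040525, inside the member window chr12:59039549-59041623.
n-TRtct3: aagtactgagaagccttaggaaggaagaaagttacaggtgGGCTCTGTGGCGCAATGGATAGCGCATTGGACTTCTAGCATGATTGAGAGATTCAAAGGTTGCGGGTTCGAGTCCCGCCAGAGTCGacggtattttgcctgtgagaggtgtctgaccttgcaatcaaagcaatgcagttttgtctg
n-TLtaa2: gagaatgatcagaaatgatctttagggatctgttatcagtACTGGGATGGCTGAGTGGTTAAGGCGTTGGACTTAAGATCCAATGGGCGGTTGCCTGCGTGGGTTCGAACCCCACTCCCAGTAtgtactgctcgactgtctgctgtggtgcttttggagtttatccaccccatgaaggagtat
Gm22973: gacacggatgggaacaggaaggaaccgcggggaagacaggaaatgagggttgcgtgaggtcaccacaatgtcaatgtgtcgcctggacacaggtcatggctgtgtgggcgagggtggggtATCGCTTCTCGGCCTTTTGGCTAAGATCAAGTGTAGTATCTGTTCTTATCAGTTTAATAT

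At 24 h the windows held a median of 7.31 to 7.51 CPM in the 3 control libraries, 2.82 to 2.99 CPM in the CK666 libraries and 2.74 to 2.88 CPM in the CytoD libraries. Both inhibitors left a similar remainder, with a median over windows of 39.7% of the control mean for CK666 and 39.8% for CytoD. In such bulk libraries, fewer cells with an open window and less accessibility per cell cannot be told apart. The CK666 mean was under 0.5 times the control mean in 438 windows and the CytoD mean in 440, while 26 and 19 windows were under 0.25 times. The lowest control CPM of the windows ran from 1.02 to 210.4 with a median of 6.78. In the plot of both limit values, the 478 windows fill the lower left corner and reach down to 0.286 for the larger of the 2 ratios.

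**Figure D1:**
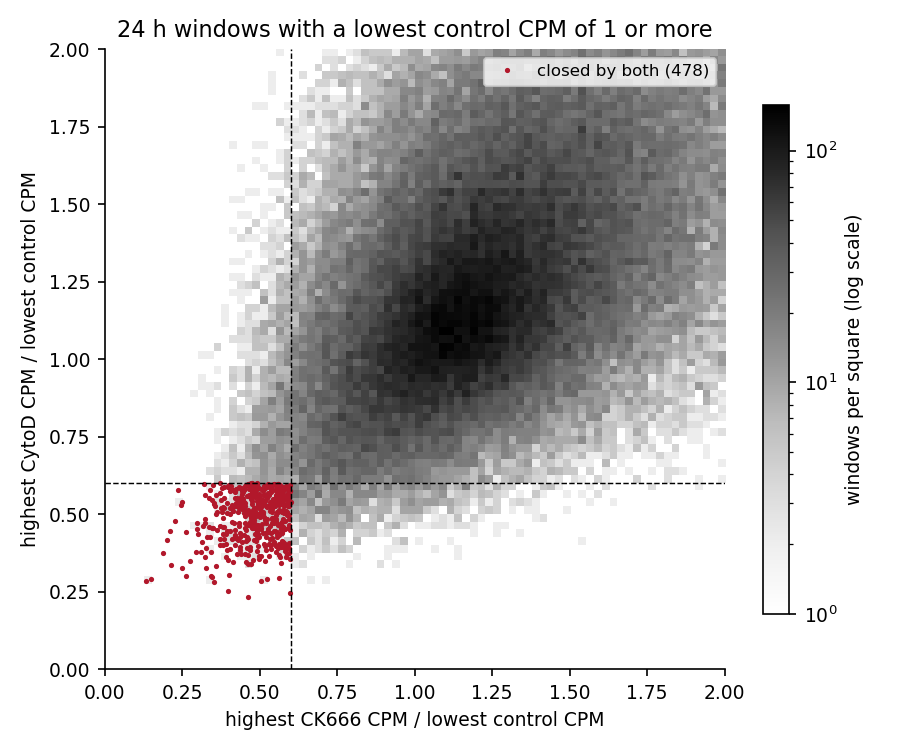
Highest CK666 CPM (x axis) and highest CytoD CPM (y axis) of each 24 h window, each divided by the lowest control CPM. Grey squares count the 130178 windows with a lowest control CPM of 1 or more on a log scale (windows with a ratio above 2 are outside the frame), red points are the 478 windows under both limits of 0.6, marked by dashed lines.

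The 3 members nearest to the limit lay at ratios of 0.5997, 0.5997 and 0.5998. By nearest protein-coding gene, they were a window of Tm4sf1 (chr3:57282273-57283316), one of Lekr1 (chr3:65644592-65645266) and one of Moap1 (chr12:102725585-102726150). The 3 windows just outside lay at 0.6002, 0.6007 and 0.6007, with the nearest genes Wwc2 (chr8:47932357-47932907), Mut (chr17:41259524-41260562) and Asb4 (chr6:5439163-5439847). The limit separated windows with nearly the same ratios, and 123 windows passed at a limit of 0.5 and 1453 at 0.7.

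**Figure D2:**
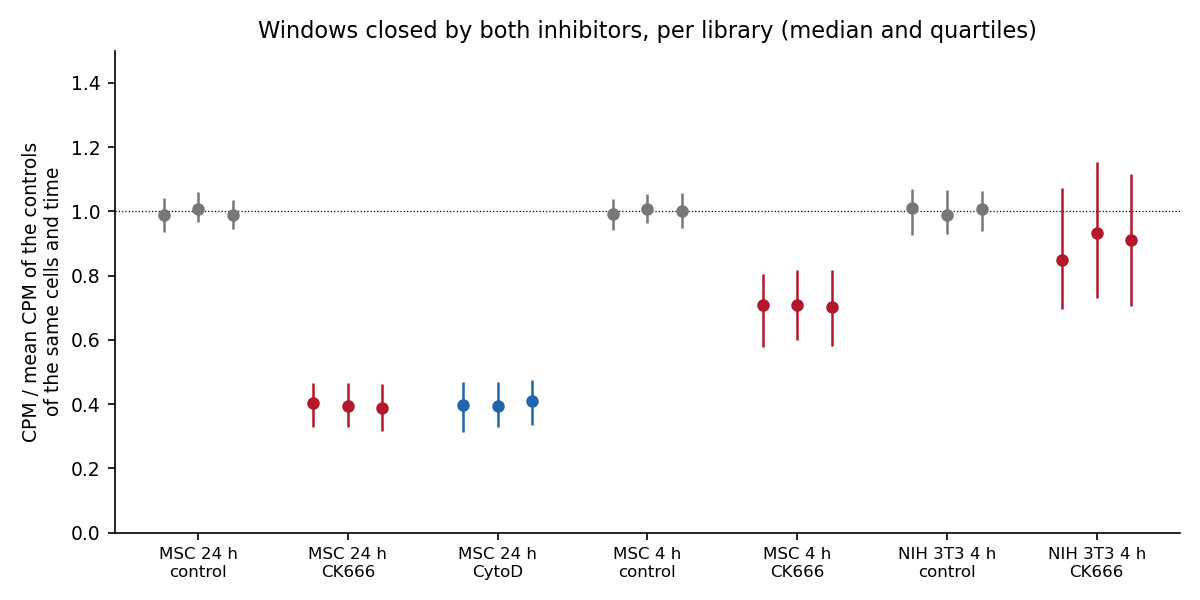
CPM of the windows closed by both inhibitors divided by the mean CPM of the control libraries of the same cells and time, 1 point per library (median over windows, bars from lower to upper quartile). The 24 h CK666 and CytoD libraries, used by the rule, lie between 0.388 and 0.410, the 4 h CK666 libraries of MSC between 0.704 and 0.708 and those of NIH 3T3 between 0.848 and 0.931.

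The windows were mostly distal. A TSS of any gene lay in 19 windows (3.97%) against 14.3% of the 130178 windows with a lowest control CPM of 1 or more, and a protein-coding TSS in 8 (1.67% against 12.4%). Intergenic windows numbered 233 (48.7% against 34.5%) and intronic windows 207 (43.3% against 46.2%). The median distance to the nearest protein-coding TSS was 33149 bp against 12891 bp, and 179 windows (37.4%) lay more than 50 kb from any. The windows were also narrower, with a median of 606.5 bp against 709 bp, and poorer in GC, with a median of 43.2% against 46.3%. Chromosome 13 held 39 of them, 0.832% of its 4686 eligible windows against 0.367% over all chromosomes.

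AP-1 and TEAD letters were more frequent in these windows than in the eligible windows. Windows with a TSS or a tRNA gene were left out, which left 441 members and 111467 of the eligible windows. In the central 300 bases, AP-1 letters stood in 190 members (43.1% against 27.5%), TEAD letters in 169 (38.3% against 22.1%), both in 69 (15.6% against 6.20%) and neither in 151 (34.2% against 56.5%). The CArG box, the site of SRF, stood in 17 (3.85% against 1.76%). The CTCF motif was less frequent, in 5 members (1.13% against 6.07%). RUNX letters (TGTGGT, 28.6% against 29.6%), the C/EBP palindrome (TTGCNNCAA, 2.72% against 2.82%) and NF-Y letters (CCAAT, 34.2% against 33.7%) stood at nearly the same share in both sets. Letters of 3 further forms were added after the windows had been seen, a longer TEAD form (ACATTCC, which overlaps GGAATG on the other strand, 19.3% against 7.78%), an AP-1 variant (TGACTAA, 17.9% against 7.18%) and the octamer (ATGCAAAT, 4.99% against 1.499%). A match is a run of letters and not a bound site. The parts of the lower GC content and of the narrower width of the members in these shares were not tested.

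**Figure D3:**
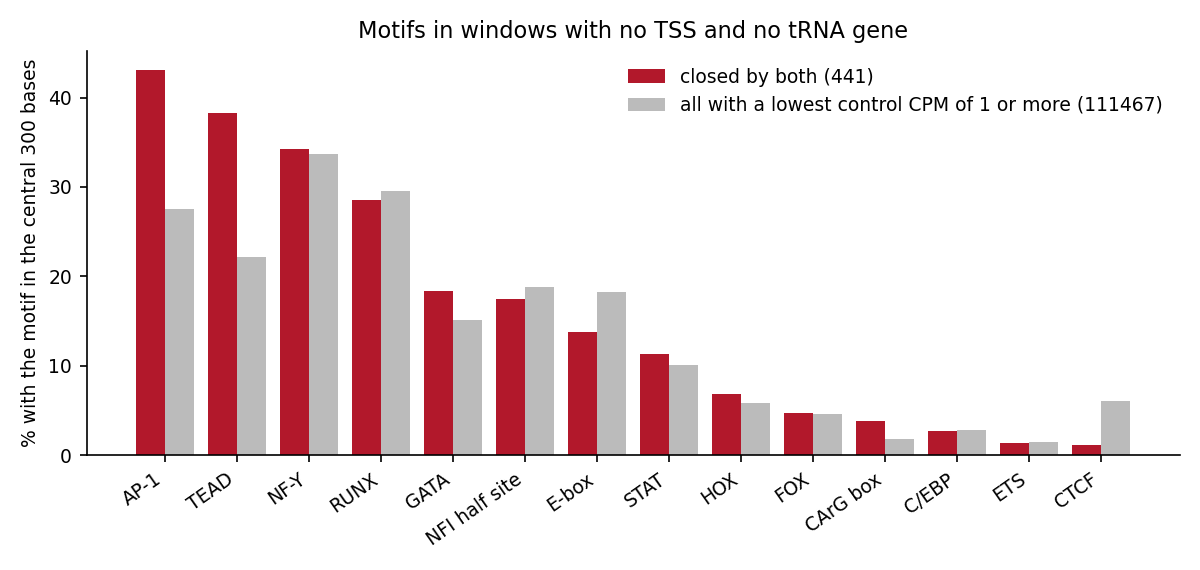
Share of windows with a motif in their central 300 bases, on either strand, for 441 windows closed by both inhibitors (red) and 111467 windows with a lowest control CPM of 1 or more (grey), in both sets without a TSS or tRNA gene. AP-1 (43.1% against 27.5%) and TEAD (38.3% against 22.1%) stand higher in red, CTCF (1.13% against 6.07%) stands lower.

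The 4 h libraries, which the rule did not use, show the same windows in another experiment. Of the 478 windows, 477 overlapped a window of the 4 h table by at least 1 bp, and the log2 and CPM values below belong to the 4 h window with the largest overlap. A member was counted as called or passing when any overlapping 4 h window was. In MSC, CK666 for 4 h lowered the windows to a median of 70.9% of control, with a median log2 fold change of -0.52 against 0.01 over the 127160 eligible windows. The change was negative in 462 of the 477 windows (96.9% against 48.7%). All 3 CK666 libraries lay below all 3 controls in 394 windows (82.6% against 13.9% of eligible windows), and above them in 2 (0.419% against 17.9%).

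Called windows were those that changed by more than 1 on the log2 scale at an adjusted p below 0.01, from edgeR's quasi-likelihood test over the whole 4 h table with Benjamini-Hochberg adjustment. By this rule, 62 members (13.0%) were lower with CK666 in MSC at 4 h, where 0.428% of all tested windows and 0.5% of the eligible windows were called lower. No member was called higher, where 0.589% of all tested windows and 0.788% of the eligible windows were. At an unadjusted p under 0.05, 408 members were lower and 2 higher, where 9.59% and 9.51% of all tested windows were. DESeq2 called 61 lower and 0 higher, where it called 0.511% and 0.649% of the windows to which it gave an adjusted p. With an adjusted p under 0.05 and no fold limit, 364 members (76.2%) were lower and 1 higher, where 3.82% and 3.56% of all tested windows and 7.70% and 7.11% of the eligible windows were. In the text, single windows are said to fall or rise when they passed this second rule, and are said to be called only under the first. Across the 477 windows, the 24 h and the 4 h log2 changes with CK666 had a Spearman rho of 0.34, a description over windows that share the same libraries. Members held more reads than the eligible windows, with a median 24 h control of 7.49 CPM against 3.01 CPM. The part of read depth in the shares above was not tested.

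**Figure D4:**
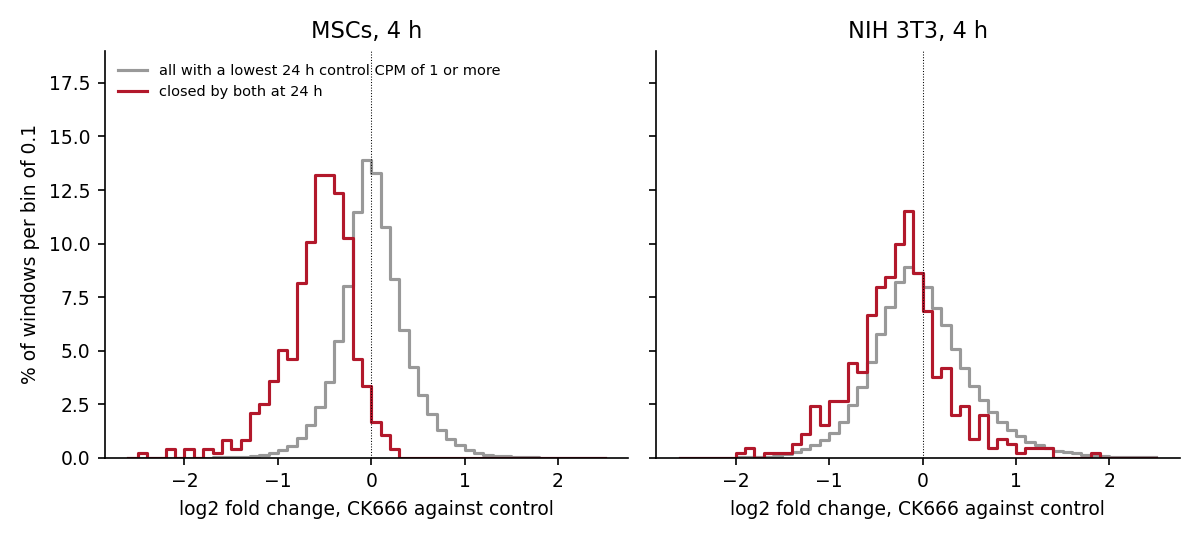
Distribution of the log2 fold change of CK666 against control at 4 h in MSC (left) and NIH 3T3 (right), as the percent of windows per bin of 0.1, for windows closed by both inhibitors at 24 h (red) and all windows with a lowest 24 h control CPM of 1 or more (grey); values beyond the frame are drawn in the outer bins. The red median is -0.52 in MSC and -0.24 in NIH 3T3, the grey medians are 0.01 and -0.05.

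The deepest loss at 4 h lay 3492 bp downstream of the TSS of Ccn2, which encodes connective tissue growth factor, a secreted matrix protein and a textbook YAP target. This window (chr10:24599272-24600435) held 6.23, 4.74 and 4.53 CPM in the 24 h controls, 0.441, 1.27 and 1.54 CPM with CK666 and 1.21, 1.94 and 1.85 CPM with CytoD. At 4 h it held 24.3, 24.1 and 19.8 CPM in untreated MSC and 3.82, 3.97 and 4.62 CPM with CK666. The groups did not overlap, and the log2 fold change was -2.48 (SE 0.10, adjusted p = 2.49e-35 by edgeR). Of the 6 largest called losses in MSC, this window and that of n-TRtct3 were also called lower in NIH 3T3. The Ccn2 window held 10.4, 11.5 and 10.8 CPM in controls and 3.04, 4.62 and 4.06 CPM with CK666 in those cells, a log2 fold change of -1.55 (adjusted p = 2.97e-11).

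The next largest losses in MSC lay near Pdlim5, which encodes a PDZ and LIM domain protein of stress fibres, near Tm4sf1, and at Gm22973 beside Trappc6b. The Pdlim5 window (chr3:142227310-142232659) held 21.95, 19.6 and 19.5 CPM in the 24 h controls, 6.41, 7.43 and 6.76 CPM with CK666 and 8.95, 7.54 and 6.37 CPM with CytoD. Its 4 h window, which covered part of it, held 4.90, 5.20 and 5.20 CPM in untreated MSC and 0.822, 1.26 and 1.47 CPM with CK666, a log2 fold change of -2.13 (SE 0.19, adjusted p = 6.21e-15 by edgeR). No CK666 library reached the lowest control at either time. Tm4sf1, which encodes a tetraspanin-like membrane protein, had a faint window at chr3:57282273-57283316 with 2.84, 2.53 and 2.09 CPM in untreated MSC at 4 h and 0.569, 0.772 and 0.405 CPM with CK666 (log2 fold change -2.10, SE 0.27, adjusted p = 4.34e-09). An intronic window of Slc14a2, a urea transporter gene, fell from 4.02, 3.46 and 3.21 to 1.39, 0.829 and 1.06 CPM at 4 h (log2 fold change -1.73, adjusted p = 1.94e-09).

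Among windows with at least 3 CPM in every 24 h control, the strongest joint losses were seen in 10 windows near or in Fhit, Trappc6b, Apob, Pecr, Gtf3c6, Zfp213, Nav3, Pdgfd, Syde2 and AU018091. The intronic Fhit window held 8.07, 8.81 and 5.96 CPM in controls, 0.686, 0.800 and 0.563 CPM with CK666 and 1.71, 1.001 and 1.49 CPM with CytoD, that is 8.97% and 18.4% of the control mean. At 4 h it held 10.3, 11.9 and 10.7 CPM in untreated MSC and 6.58, 8.35 and 6.52 CPM with CK666, a smaller loss (log2 fold change -0.64, adjusted p = 7.1e-06). In NIH 3T3 the Fhit window rose, from 2.05, 2.48 and 2.66 CPM to 4.55, 3.95 and 4.75 CPM (log2 fold change 0.77, adjusted p = 0.00498). The Apob window, with 2 AP-1 and 2 TEAD matches, held 9.13, 9.13 and 7.62 CPM in controls, 2.497, 2.16 and 1.996 CPM with CK666 and 2.49, 2.07 and 1.70 CPM with CytoD. Its 4 h values were 15.8, 14.8 and 15.2 CPM and 7.52, 7.98 and 7.61 CPM (log2 fold change -1.01, adjusted p = 4.28e-14), a call that was lost under scaling by total counts (-0.98) and without either of 2 libraries, CK666 replicate 3 (-0.995) or control replicate 1 (-0.98), by the fold limit. The window upstream of Syde2 (chr3:145965529-145966117) lay almost wholly in soft-masked repeat sequence, at 99.2% of its bases, and the one near Nav3 (chr10:109536551-109537130) wholly so, at 100%. Syde2 held 13.04, 11.99 and 13.2 CPM at 4 h in untreated MSC and 6.32, 5.80 and 5.24 CPM with CK666 (log2 fold change -1.16, adjusted p = 1.37e-14), and Nav3 15.3, 15.1 and 16.3 CPM and 8.63, 9.29 and 10.4 CPM (log2 fold change -0.75, adjusted p = 1.02e-09). Over 80% of the bases were soft-masked in 18 members (3.77% against 0.419% of eligible windows), and all 18 had a negative log2 fold change in MSC at 4 h. How the authors treated reads that match several places was not given in the sources used here, so values in repeats are uncertain.

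The gene lists were read by the nearest protein-coding TSS within 50 kb, which 299 members had. Those 299 made up 0.299% of the 100011 eligible windows so assigned, and they fell to 275 genes. Of 25 YAP and TEAD target genes, 5 had a member (5 of 575 eligible windows, 0.870%), namely Ccn2, Ccn1, Amotl2, Lats2 and Ccdc80. Of 39 genes of the TGF-beta and BMP pathway, 4 had one (5 of 498 windows, 1.004%), among them Ltbp1, Tgfbr3 and Bmp4. The list of 42 integrin and focal adhesion genes had 3 (0.398%), Actn1, Pdlim5 and Tns3, the 38 collagen and matrix genes 2 (0.348%), Col1a2 and Loxl1, and the 35 SRF and MRTF targets, the 40 actin assembly genes and the 27 marrow stromal genes 1 each, Actn1, Diaph2 and Ebf3. No member was nearest to an AP-1 factor gene, an adipogenic or osteogenic marker of the study or a cell cycle gene, of 114, 110, 91 and 238 eligible windows. At the share of 0.299% over all assigned windows, lists with so few windows could well hold none. The lists with 1 to 3 members had shares from 0.222% to 0.398%, near the share over all assigned windows. Nothing is read from these lists or from those without a member.

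Of the 5 YAP and TEAD target windows, 4 fell in MSC at 4 h by an adjusted p under 0.05, as did 364 of all 478 members (76.2%). The share is near that of all members, and nothing is read from it. The Ccn2 window also passed the fold limit. The window 3461 bp downstream of the TSS of Ccn1 (chr3:145644596-145646520), whose secreted product is a relative of CTGF, held 11.6, 6.71 and 8.17 CPM in the 24 h controls, 3.33, 3.20 and 2.87 CPM with CK666 and 2.49, 2.67 and 2.57 CPM with CytoD. At 4 h it held 32.5, 33.1 and 29.3 CPM in untreated MSC and 19.9, 16.1 and 15.2 CPM with CK666, with no overlap (log2 fold change -0.91, SE 0.08, adjusted p = 1.99e-16 by edgeR). Amotl2, whose product binds YAP, held 20.4, 23.8 and 21.6 CPM and 15.8, 14.2 and 14.4 CPM (log2 fold change -0.59, adjusted p = 1.5e-08), and Ccdc80, a secreted protein gene, 25.8, 27.3 and 27.2 CPM and 16.2, 16.4 and 15.3 CPM (log2 fold change -0.76, adjusted p = 1.04e-13). Lats2, which encodes a kinase that phosphorylates YAP, did not pass (log2 fold change -0.41, adjusted p = 0.478). In NIH 3T3 the test did not pass for Amotl2 (log2 fold change -0.07, adjusted p = 0.861) or Ccdc80 (-0.10, adjusted p = 0.657).

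The start of an annotated Yap1 transcript lay in a member (chr9:7965516-7966141). Any annotated transcript start counted as a TSS, so such a window need not be the main promoter of its gene. The Yap1 window held 3.97, 3.49 and 3.56 CPM in the 24 h controls, 1.91, 1.41 and 1.64 CPM with CK666 and 0.995, 1.47 and 1.64 CPM with CytoD. At 4 h the MSC values were 4.56, 4.96 and 5.20 CPM in controls and 3.41, 3.86 and 4.15 CPM with CK666, and the test did not pass (log2 fold change -0.39, adjusted p = 0.0955). The other 7 members with a protein-coding TSS were at Slco1a5, Susd1, Rdm1, Gabbr1, C4bp, Myadm and 4930486L24Rik. Slco1a5, an organic anion transporter gene, was the most open of them, with 53.96, 56.7 and 56.2 CPM in the 24 h controls, 22.5, 23.9 and 23.9 CPM with CK666 and 29.1, 29.2 and 29.8 CPM with CytoD. It fell at 4 h from 71.3, 73.7 and 74.8 to 45.6, 46.8 and 43.9 CPM in MSC (log2 fold change -0.71, adjusted p = 9.72e-19) and from 18.3, 18.3 and 19.95 to 11.7, 13.5 and 12.1 CPM in NIH 3T3 (-0.70, adjusted p = 8.39e-05). Myadm, which encodes a membrane protein of lipid rafts, held 15.2, 14.4 and 14.7 CPM, 5.24, 6.77 and 6.76 CPM and 5.69, 5.54 and 5.50 CPM in the same 3 groups at 24 h, and 22.1, 23.5 and 20.2 CPM and 13.9, 11.4 and 11.5 CPM at 4 h in MSC (log2 fold change -0.86, adjusted p = 1.46e-13). None of the 8 windows was called at 4 h in either cell type, and all 8 had a negative log2 fold change in MSC.

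Of the focal adhesion genes, the intronic Actn1 window shown above held 15.9, 17.4 and 16.03 CPM in the 24 h controls, 7.98, 7.57 and 8.29 CPM with CK666 and 6.47, 7.01 and 6.94 CPM with CytoD, then 41.6, 39.7 and 33.7 CPM and 20.7, 22.7 and 19.6 CPM in untreated and CK666-treated MSC at 4 h (log2 fold change -0.89, SE 0.07, adjusted p = 9.94e-18 by edgeR). Tns3, a tensin gene, fell from 68.7, 67.3 and 68.6 to 48.2, 48.1 and 44.6 CPM at 4 h (-0.56, adjusted p = 1.39e-13). Bmp4, a ligand of the BMP pathway, had a window 45717 bp upstream that fell from 7.33, 9.03 and 8.24 to 4.65, 5.43 and 4.96 CPM (-0.73, adjusted p = 5.9e-06). The more open of the pair of Ltbp1 windows, a gene whose product stores latent TGF-beta in the matrix, fell by 0.44 on the log2 scale in MSC at 4 h, Tgfbr3, a TGF-beta co-receptor, by 0.34 and the collagen crosslinking enzyme Loxl1 by 0.54, with adjusted p of 2.03e-07, 0.00215 and 5.13e-06. The other Ltbp1 window fell by 0.71 (adjusted p = 0.0319). Ebf3, a transcription factor gene of marrow stroma, fell by 0.73 (adjusted p = 4.12e-06). For Col1a2, a type I collagen chain, the log2 fold change was -0.30 (adjusted p = 0.0682), and for the formin gene Diaph2, at about 1 CPM in untreated MSC, -0.33 (adjusted p = 0.604).

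Small RNA genes of 2 kinds were singled out after the windows had been seen, and are given with no test of the group. A tRNA gene lay in 18 members (3.77%) against 179 of the eligible windows (0.138%). Of these 18, 14 lay on chromosome 13 between 21 and 24 Mb, a region of histone and tRNA genes where 71 eligible windows held a tRNA gene, and all 14 members of that region did. Their neighbours by TSS were Zfp184 with 5 members, the largest number of any gene, and Btn1a1 and Btn2a2 with 2 each. Each of these members held a tRNA gene. Of all 179 eligible windows with a tRNA gene, members included, 144 had a 24 h log2 ratio to control below 0 with both inhibitors. The medians were -0.37 for CK666 and -0.48 for CytoD, beside -0.06 and -0.05 over the eligible windows. The 18 members are below 0 by the rule. Of the other 161, 126 were below 0 with both, with medians of -0.32 and -0.42, where 49195 of the 130178 eligible windows were. The rule used these 24 h values, so they are a description.

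The window of n-TRtct3 held 2.27, 1.74 and 2.59 CPM in the 24 h controls, 0.881, 0.188 and 0.358 CPM with CK666 and 0.497, 0.133 and 0.206 CPM with CytoD. At 4 h it held 5.03, 5.76 and 5.10 CPM in untreated MSC and 1.39, 1.14 and 1.59 CPM with CK666 (log2 fold change -1.97, SE 0.18, adjusted p = 2.01e-14 by edgeR), and 4.10, 3.77 and 4.51 CPM and 2.41, 2.33 and 1.17 CPM in NIH 3T3 (-1.20, adjusted p = 7.23e-05). In both cell types every CK666 library lay below every control. The n-TLtaa2 window gave 5.50, 5.13 and 5.54 CPM and 2.09, 1.43 and 1.93 CPM in MSC (-1.60, adjusted p = 1.08e-11), and 1.07, 1.51 and 1.44 CPM and 0.276, 0.359 and 0.432 CPM in NIH 3T3, the largest loss of any member in those cells (-1.96, adjusted p = 0.000526). Windows of n-TMcat10, a tRNA-Met gene, and n-TTagt3, a tRNA-Thr gene, were among the 4 largest losses in NIH 3T3 as well, at -1.83 and -1.62 (adjusted p = 0.000189 and 0.0037). Outside chromosome 13, n-TPcgg1 on chromosome 17 (chr17:23540428-23541283) held 17.5, 17.2 and 16.6 CPM in the 24 h controls, 3.18, 5.74 and 4.35 CPM with CK666 and 4.69, 4.94 and 4.57 CPM with CytoD, and at 4 h fell in MSC from 20.1, 19.9 and 19.1 to 8.09, 9.38 and 10.4 CPM (-1.10, adjusted p = 1.76e-17). At 4 h all 18 tRNA members had a negative log2 fold change in both MSC (median -1.05) and NIH 3T3 (median -0.77). Of these, 10 and 8 were called lower, where 0.5% and 2.12% of the eligible windows were. Without the members, the other 161 eligible tRNA windows had a median of -0.19 in MSC, with 9 called lower and 0 higher. In NIH 3T3, 160 had a value, with a median of 0.01, 3 called lower and 1 higher.

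A gene for U1, U2, U3, U4 or U5 RNA lay within 5 kb of 20 members (4.18% against 0.121% of eligible windows), and no member held both kinds of gene. By RNA these were 9 windows near a U2 gene, 5 near a U3 gene, 5 near a U5 gene and 1 near a U1 gene, with none near a U4 gene. They were broad and open, with a median width of 2088 bp and a median control level of 23.4 CPM, beside 606.5 bp and 7.49 CPM over all members. The most open member of all was such a window, beside LOC115487699, a U5 gene, and Alyref2 (chr1:171499690-171503136), with 210.4, 234 and 235 CPM in the 24 h controls, 83.9, 79.8 and 79.2 CPM with CK666 and 119, 124 and 122 CPM with CytoD. At 4 h it held 238, 240.2 and 242 CPM in untreated MSC and 159, 178 and 179 CPM with CK666 (log2 fold change -0.51, adjusted p = 9.94e-18).

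The U2 gene Gm22973 had 3 members. The one that holds the gene gave 80.7, 86.4 and 84.6 CPM in the 24 h controls, 16.1, 15.1 and 16.2 CPM with CK666 and 32.1, 30.96 and 33.8 CPM with CytoD, a deeper loss with CK666 (18.8% of control) than with CytoD (38.5%). Its neighbour (chr12:59041738-59042307) gave 10.2, 11.1 and 11.8 CPM, 1.52, 0.470 and 1.18 CPM and 1.56, 2.40 and 2.98 CPM. Both shared 1 window of the 4 h table, which held 141, 142 and 139 CPM in untreated MSC and 70.4, 74.8 and 76.7 CPM with CK666 (log2 fold change -0.95, SE 0.05, adjusted p = 3.53e-30 by edgeR), but only 4.35, 5.45 and 5.88 CPM in untreated NIH 3T3. The third (chr12:59042572-59043185) gave 6.62, 5.93 and 4.65 CPM in untreated MSC and 1.68, 1.40 and 1.34 CPM with CK666 (-1.98, adjusted p = 5.89e-15) and did not pass the filter on low counts in NIH 3T3. At Gm25939, a U2 gene near Pecr, the member (chr1:72255954-72258300) held 42.1, 47.5 and 43.9 CPM in the 24 h controls, 6.76, 8.98 and 6.14 CPM with CK666 and 13.8, 14.2 and 13.9 CPM with CytoD, and fell at 4 h from 62.9, 62.3 and 54.7 to 23.6, 27.4 and 26.6 CPM (-1.24, adjusted p = 3.32e-29). The U3 genes Rnu3b1, Rnu3b2, Rnu3b3 and Rnu3b4 lay near 4 members in or beside Tex14, with 4 h log2 values from -0.27 to -0.30 in MSC. Aldh1a1, a retinaldehyde dehydrogenase gene, had 2 members with 4 h log2 values of -0.54 and -0.22 (adjusted p = 0.00042 and 0.229). Over all 20 members within 5 kb of a U gene, the log2 fold change was negative in MSC in 20 (median -0.65, 7 called lower). In NIH 3T3 it was negative in 14 of 19 (median -0.21, 0 called). Of the eligible windows, 0.5% were called lower in MSC. Of the other 137 eligible windows within 5 kb of such a gene, U4 included, the 133 with a value had a median of -0.06 in MSC. Of these, 6 were called lower and 1 higher. Copies of tRNA and U genes are nearly identical, and reads could have been placed at the wrong copy, which makes the share of a single copy uncertain.

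**Figure D5:**
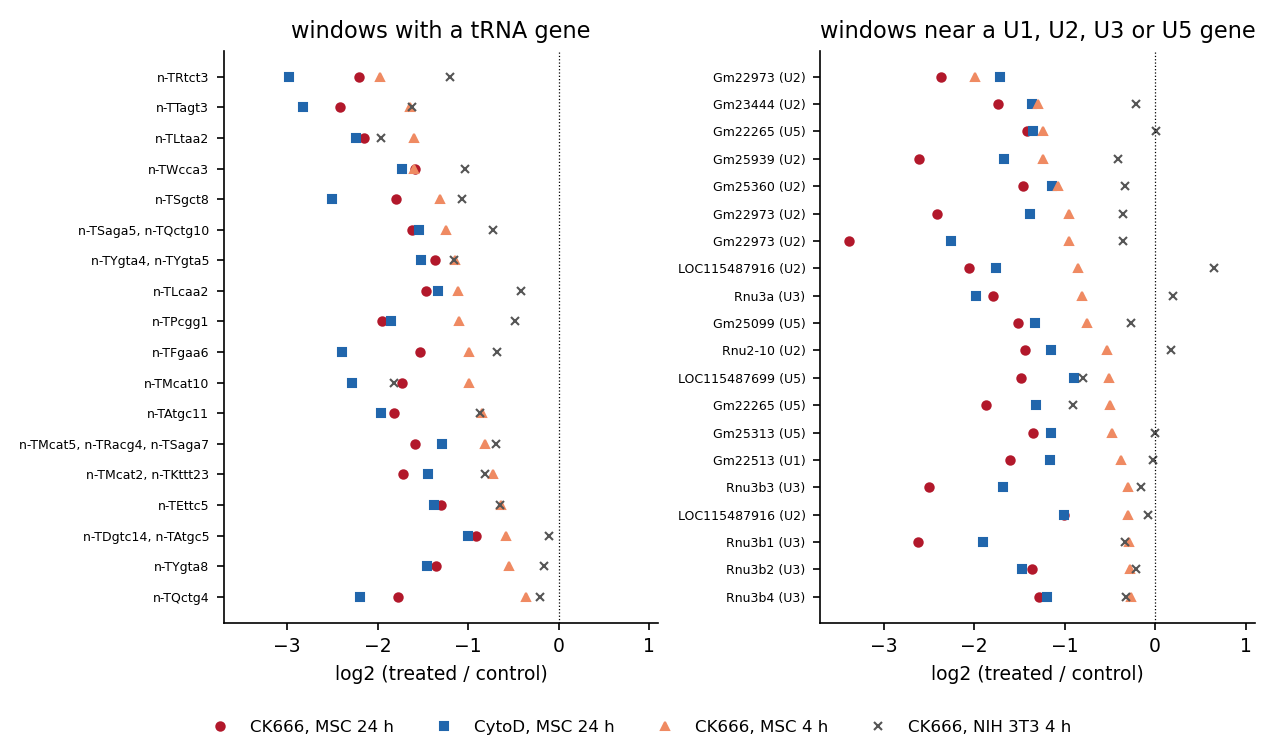
Log2 ratio of treated to control for the 18 members with a tRNA gene (left) and the 20 members within 5 kb of a U1, U2, U3 or U5 gene (right), 1 line per window, ordered by the 4 h value in MSC. At 24 h the ratio is of mean CPM, at 4 h it is edgeR's log2 fold change; all orange triangles (CK666, MSC, 4 h) lie left of 0, and so do all 18 crosses (NIH 3T3) of the tRNA windows.

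Members that held neither a small RNA gene nor a TSS numbered 428. Their median log2 fold change was -0.51 in MSC, with 412 of 427 negative and 45 called lower, and -0.22 in NIH 3T3. Of the eligible windows, 48.7% were negative and 0.5% were called lower in MSC. The members with TEAD letters had a median of -0.58 in MSC, those with AP-1 letters -0.44 and those with neither -0.53. In NIH 3T3 the order differed, with -0.22, -0.28 and -0.18. Differences between these classes were not tested.

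In NIH 3T3, cells in which the rule asked for no loss, the losses were fewer and gains occurred. The members had a median log2 fold change of -0.24 against -0.05 over the eligible windows, with 334 negative of the 451 members that passed the filter on low counts. By the same call, 30 members (6.28%) were lower and 6 (1.26%) higher, where 1.67% and 1.88% of all tested windows were, and 2.12% and 1.70% of the eligible windows. Percentages of called or passing members are of all 478 members, here and elsewhere. Of these, 452 overlapped a 4 h window tested in NIH 3T3, while the other shares are of tested windows only. All 3 CK666 libraries lay below all controls in 155 members (32.5% against 16.2% of eligible windows) and above in 56 (11.7% against 18.2%). With an adjusted p under 0.05 and no fold limit, 137 (28.7%) were lower and 17 (3.56%) higher, where 7.25% and 5.9% of all tested windows and 13.1% and 6.24% of the eligible windows were. In both cell types 13 members were called lower, where 0.0308% of all windows tested in both and 0.0421% of the eligible windows were. Scaling by total counts moved the median of all windows in NIH 3T3 from 0.04 to 0.14, and the median of the members from -0.24 to -0.13. Under that scaling 22 members were called lower and 7 higher, where 3628 and 7872 of all 331963 tested windows were.

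The largest gains lay in Dapk1, which encodes a death-associated kinase, and near Igfbp7, a secreted growth factor binding protein. The Dapk1 window (chr13:60755477-60756282) held 0.616, 0.682 and 0.887 CPM in untreated NIH 3T3 and 2.97, 3.23 and 2.55 CPM with CK666 (log2 fold change 1.89, adjusted p = 1.06e-06 by edgeR), and 7.97, 8.63 and 9.75 CPM and 7.11, 7.89 and 8.52 CPM in MSC (-0.19, adjusted p = 0.361). The Igfbp7 window (chr5:77428511-77429288) rose from 3.90, 3.01 and 3.33 to 7.31, 10.5 and 10.8 CPM in NIH 3T3 (1.40, adjusted p = 3.95e-09) and fell from 8.68, 8.36 and 7.01 to 4.65, 4.55 and 4.46 CPM in MSC (-0.84, adjusted p = 3.98e-07). The largest loss in NIH 3T3 outside the tRNA genes lay in an intron of Trpc6, a calcium channel gene (chr9:8558461-8559056), with 7.80, 7.39 and 8.76 CPM in controls and 2.14, 1.66 and 3.20 CPM with CK666 (-1.86, adjusted p = 1.06e-11). In MSC the same window held 24.6, 23.5 and 22.9 CPM and 19.2, 19.7 and 20.5 CPM (-0.28, adjusted p = 0.00547).

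The difference between the cell types was tested as the interaction of cell type and CK666 over all 12 libraries of 4 h. The change was lower in MSC at 40 members (8.37%) and higher at 6 (1.26%), where 0.498% and 0.903% of all tested windows were called, and 0.993% and 2.07% of the eligible windows. With an adjusted p under 0.05 and no fold limit, the counts were 96 (20.1%) and 22 (4.60%), where 1.76% and 2.9% of all tested windows and 3.16% and 7.06% of the eligible windows passed. Under scaling by total counts the called numbers became 57 and 2, where 2721 and 2346 of all 368794 tested windows were called. The median of all windows moved from -0.05 to -0.15 under that scaling. The median of the difference was -0.30 over the members against 0.06 over the eligible windows. Members were taken for a loss with CK666 in MSC at 24 h, with no such condition in NIH 3T3. An excess of lower changes in MSC can follow from that choice, so it is no free test of cell type dependence. The levels in untreated cells are given as a description, since the members were taken for their level in untreated MSC, with a median control of 7.49 CPM against 3.01 CPM over the eligible windows. Of the members, 251 (52.5%) were called more open in MSC and 25 (5.23%) less open, where 18.3% and 16.2% of all tested windows and 38.3% and 6.85% of the eligible windows were. With no fold limit and an adjusted p under 0.05, 351 (73.4%) were more open and 60 (12.6%) less open, where 28.0% and 24.9% of all tested windows and 57.8% and 14.6% of the eligible windows were. The median log2 difference was 1.06 against 0.64 over the eligible windows, which were taken for their level in MSC as well. Cell type, culture and any difference of strain cannot be told apart here.

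CK666 and CytoD at 24 h are set side by side as a description, since the rule held both under the same limit and so bounded their difference. With CK666, 248 of the 478 means lay lower than with CytoD, and with CytoD 230. The difference of the log2 ratios ran from -1.33 to 1.24. All CK666 libraries lay below all CytoD libraries in 70 members and above them in 64. The share of eligible windows separated in this way is not given here, so these 2 counts cannot be judged. The edgeR call of one inhibitor against the other counted 2 members lower with CK666 and 2 lower with CytoD, where 1.13% and 2.15% of all tested windows were called. At an adjusted p under 0.05 with no fold limit it counted 24 and 37, where 4.21% and 7.38% were. These counts use the values that chose the members, and nothing is read from them.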

How the data were processed

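Omni-ATAC libraries of MSC at 24 h and of MSC and NIH 3T3 at 4 h were analysed, 3 per group. The authors processed reads with PEPATAC, aligned them with bowtie2 and called peaks with MACS2 (versions not given in the sources used here), on mm10 per the labels, that is GRCm38. They deposited raw read counts per window, in 1 table per time, and tables were tested separately. The 9 siRNA libraries were not used. CPM was taken by column total. Total counts set the precision, and intervals are not given for single libraries.

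Counts were tested with edgeR 4.0.16 in R 4.3.3 (filterByExpr, TMM scaling, quasi-likelihood F test, Benjamini-Hochberg adjustment over all windows; SE is the log2 fold change over the root of F). Each 4 h comparison within a cell type used its 6 libraries, and the interaction and the untreated cells used all 12. A member was called when any overlapping 4 h window was. DESeq2 1.42.0 was an alternative, and Python 3.11.15 with pandas 2.3.3, numpy 2.4.6 and scipy 1.17.1 did the rest. Scripts were tested on simulated data. Alternatives changed the limits, scaling, filter, tool, overlap and block, or left out 1 library. Genes, tRNA and small RNA genes, sequences and soft masking came from RefSeq (GRCm38) and GENCODE.

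Windows named were the 10 lowest ratios among members with 3 CPM or more in every control, the 8 most open members with a protein-coding TSS, the 6 genes with most members, the 6 largest called losses in MSC, the 4 largest called losses and 2 largest gains in NIH 3T3, gene list members and the 3 windows on each side of the limit. Of the 6 genes with most members, Aldh1a1, Btn1a1 and Btn2a2 had 2 each. Other genes, such as Celf2 and Ext1, also had 2, so these places were a tie. Members and lists were chosen with earlier results of these data known, and other windows named were chosen after their values were seen. Values of 1 gene list member and the sequence of 1 window are not reported here.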

Additional observations from a re-analysis of the deposited data

Results flagged for a closer look

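At 10 members, 8 of them described above and 2 (in Hhat and in an intron of Rdm1) chosen after their values were seen for a U RNA gene nearby, the change with CK666 at 4 h differed between MSC and NIH 3T3 by the interaction test, edgeR's quasi-likelihood test over all windows of the 4 h table. The value given is the log2 change in MSC minus that in NIH 3T3. The change was lower in MSC at 9 of them, by -2.22 beside Trappc6b (the third Gm22973 member), -2.22 near Igfbp7, -2.05 in Dapk1, -2.01 near Tm4sf1 and -1.48 in an intron of Rdm1 beside a U2 gene. The others were Fhit (-1.38), Hhat beside a U5 gene (-1.23), Pdlim5 (-1.19) and AU018091 (-1.12). It was higher in MSC at the Trpc6 window, by 1.60. Adjusted p ran from 2.71e-11 at Igfbp7 to 0.00868 at the Trappc6b window, which did not pass the filter on low counts in NIH 3T3 alone. The members were chosen for a loss in MSC, which favours lower changes in those cells. Cell type, culture and any difference of strain cannot be told apart in these differences, and causes were not tested.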

How the results depend on the processing

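The number of windows closed by both inhibitors was 123 at a limit of 0.5 and 1453 at 0.7. Leaving out 1 library gave 570 to 830, with 777, 792 and 830 without control replicate 1, 2 and 3, where fewer libraries have to pass. TMM-scaled CPM gave 558 and a lowest control CPM of 2 gave 430. With an adjusted p under 0.05 and no fold limit, a looser rule, 364 members were lower and 1 higher in MSC at 4 h, 137 lower and 17 higher in NIH 3T3, 96 lower and 22 higher in the interaction, 60 less open in untreated MSC, 24 lower with CK666 than with CytoD and 37 lower with CytoD than with CK666. Leaving out 1 library gave 61 to 66 members lower in MSC, 28 to 37 lower and 3 to 6 higher in NIH 3T3 (3 without CK666 replicate 2 or control replicate 3), and 27 to 39 lower and 4 to 10 higher in the interaction (10 without NIH 3T3 CK666 replicate 2). For CK666 against CytoD, where the rule bounds the difference, it gave 1 to 3 lower with CK666 than with CytoD (1 without CytoD replicate 2 or 3) and 2 to 4 the other way (4 without CytoD replicate 2). Scaling by total counts left 2 members higher in the interaction, where 2346 of all 368794 tested windows were. The causes of these changes were not tested. The median in MSC stayed between -0.54 and -0.51 without 1 library, that in NIH 3T3 between -0.32 and -0.19. Same-numbered libraries did not clearly deviate together (correlations from -0.06 to 0.03). Between untreated MSC and untreated NIH 3T3, all 3 correlated best with their own number, at 0.004 to 0.03. Pairing by number was thus not shown, and it is not excluded. With the replicate block, 62 members were lower in MSC, 33 lower and 6 higher in NIH 3T3 and 38 lower and 6 higher in the interaction. Without members at tRNA or U genes, an alternative chosen after seeing the data, 45 were lower in MSC and 22 in NIH 3T3. Of the eligible windows, 0.5% and 2.12% were. Of 627 values for 57 named windows under alternatives, 620 kept their direction and side of the call, 4 gained a call and 3, all at Apob, lost it. Values near 1 CPM rest on few reads and carry little weight singly.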
